A study of Mus musculus with 12 samples.

Results

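Histone variants are encoded by genes outside the replication-dependent histone clusters, and they replace the canonical histones of a nucleosome, or the linker histone between nucleosomes, at any time of the cell cycle. This report is about 10 mouse genes, listed by name, 9 of them for such histones and 1 for a chaperone: the oocyte linker histone H1foo, the linker histones H1f0 and H1fx, the H2A.Z genes H2afz and H2afv, H2afx (H2A.X), H2afy (macroH2A1), the H3.3 genes H3f3a and H3f3b, and the oocyte histone chaperone Npm2. All 10 were found by symbol among the 22619 gene symbols of the files. In the files (mm9) H1foo lies at chr6:115894957-115900251 (plus strand), H2afz at chr3:137527563-137529886 (plus), H2afx at chr9:44142798-44144156 (plus), H3f3a at chr1:182732699-182743734 (minus) and H3f3b at chr11:115883275-115885818 (minus). Their levels were compared across 5 groups of 12 libraries made with Smart-seq2, a method that copies RNA with a poly(A) tail from very little material. The oocyte stores H1foo protein and loads it onto chromatin in place of the somatic linker histones, and the linker histones of the H1 cluster take over as mouse embryos begin to transcribe their own genome. H3.3 is laid down on the paternal genome soon after fertilisation, the oocyte protein Npm2 helps to organise the nuclei of the early embryo, and H2A.Z is needed for mouse embryos to develop past implantation.

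The embryos were of strain C57BL/6. The groups were KO arrest (3 libraries) and KO embryo (3), both labelled as Dcaf11 knock out, and control embryo (2), labelled as wild type. The embryonic stem (ES) cells were of strain 129Sv, with 2 KD ESC libraries labelled as Dcaf11 knock down and 2 control ESC libraries labelled as wild type. Dcaf11 encodes a substrate adaptor of CUL4-DDB1 ubiquitin ligases, and the comparisons address what its loss does to embryos and ES cells. The labels give no stage of the embryos, no number of embryos or cells per library, no meaning of "arrest" beyond the word, and no knockout allele or knockdown agent. They do not say whether libraries of a group came from separate cultures or matings, and the p-values then cover no more than the spread among these libraries, which may be technical.

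The targeted gene was read first. Dcaf11 had 4.43, 0.422 and 6.02 FPKM (fragments scaled to gene length and to sequencing depth) in KO arrest libraries, 3.99, 2.84 and 0.184 FPKM in KO embryo libraries, and 2.82 and 14.3 FPKM in control embryo libraries. It had 1.69 and 1.83 FPKM in KD ESC libraries, against 6.48 and 4.52 FPKM in control ESC libraries. The KO and control embryo ranges overlapped, so the gene's level did not separate the embryo groups, and KO arrest and KO embryo below are names for the libraries labelled so. The ES groups did not overlap, with a log2 fold change of -1.22 ± 0.21 (SE) that missed the threshold (limma, adjusted p = 0.0521).

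Library depth and the make-up of the samples varied with the groups. Coverage per FPKM, which scales with depth, was 0.373 to 0.659 in KO arrest, 0.585 to 1.32 in KO embryo, and 2.01 and 1.22 in control embryo libraries, and 6573 to 12061 genes per library reached 1 FPKM. The first control embryo library stood apart, with the fewest such genes and a correlation of 0.774 across genes with its only replicate, against 0.888 to 0.970 within the other groups, so results are given with and without it where it matters. The 8 oocyte and cleavage markers summed to 830 to 1437 FPKM in KO arrest, 11658 to 17189 in KO embryo, 36522 to 47157 in control embryo, 3.82 and 3.91 in KD ESC, and 18.2 and 18.6 in control ESC libraries. Each embryo library had 7 or 8 of these 8 markers at 1 FPKM or more, and each ES library had 2 or 3. Omt2a was listed at 0 in every ES library, while Zscan4c and Zscan4d averaged 11.6 and 5.20 FPKM in control ESC. The 8 ES cell markers summed to 1387 to 1985 FPKM in KO arrest, 1699 to 3022 in KO embryo, 671 and 733 in control embryo, 2331 and 2632 in KD ESC, and 3053 and 3111 in control ESC libraries. In embryos that sum was mostly Dppa5a, with Pou5f1 at 0.663 to 8.10 FPKM. Tdgf1 had 23.4 to 97.0 FPKM in KO arrest, 0.537 to 4.14 in KO embryo and 0 in both control embryo libraries. Nanog had 4.61 to 10.9, 0 to 0.633, and 0.392 and 1.46 FPKM in the same order. Against control embryo, Sox2 and Klf4 ran the other way. KO arrest libraries had 0.283 to 1.02 FPKM of Sox2 and 3.83 to 7.27 of Klf4, against 5.19 and 14.1, and 21.6 and 24.1, in control embryo. Blood markers (6 of 7 in the files) summed to 0 to 9.31 FPKM in KO arrest, 209 to 325 in KO embryo, 71.4 and 173 in control embryo, and 0 in all ES libraries. Fibroblast markers (6) summed to 0.0513 to 2.90, 55.3 to 85.8, and 16.1 and 62.4 FPKM in KO arrest, KO embryo and control embryo libraries, and to 46.0 to 74.5 FPKM in ES libraries, while cumulus and granulosa markers (7) summed to at most 23.5 FPKM in any library. The part of these differences in the results below was not tested.

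The promoters of 5 members are shown because these genes carry the main patterns: H1foo was read only in embryos, H1fx was high only in ES cells, H2afz and H3f3a were called higher in KO arrest, and H3f3b, the second gene for the H3.3 protein, was called higher in KD ESC. The windows are from RefSeq (GRCm38.p6), run 5′ to 3′ on the gene's strand, and reach from 250 bases before to 50 bases after the start of the gene. They lie at chr6:115944681-115944980 (plus strand, H1foo), chr6:87981433-87981732 (minus, H1fx), chr3:137864237-137864536 (plus, H2afz), chr1:180813556-180813855 (minus, H3f3a) and chr11:116024455-116024754 (minus, H3f3b). Capitals mark matches, on either strand, to the CCAAT box (CCAAT) and the GC box, which reads GGGCGG. The TATA box was searched as TATAAA. The E-box was searched as CACGTG. The homeobox core was searched as TAATTG.
H1foo: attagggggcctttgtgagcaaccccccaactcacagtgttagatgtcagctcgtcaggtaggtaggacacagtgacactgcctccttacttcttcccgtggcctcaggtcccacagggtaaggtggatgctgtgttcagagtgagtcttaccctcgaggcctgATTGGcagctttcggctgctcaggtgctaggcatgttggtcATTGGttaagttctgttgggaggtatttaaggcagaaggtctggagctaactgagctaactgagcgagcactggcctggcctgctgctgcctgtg
H1fx: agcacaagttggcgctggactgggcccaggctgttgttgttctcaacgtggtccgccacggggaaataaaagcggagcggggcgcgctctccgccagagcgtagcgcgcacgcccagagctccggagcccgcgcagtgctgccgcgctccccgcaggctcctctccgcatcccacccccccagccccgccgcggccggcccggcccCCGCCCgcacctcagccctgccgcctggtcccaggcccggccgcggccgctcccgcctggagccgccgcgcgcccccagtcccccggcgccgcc
H2afz: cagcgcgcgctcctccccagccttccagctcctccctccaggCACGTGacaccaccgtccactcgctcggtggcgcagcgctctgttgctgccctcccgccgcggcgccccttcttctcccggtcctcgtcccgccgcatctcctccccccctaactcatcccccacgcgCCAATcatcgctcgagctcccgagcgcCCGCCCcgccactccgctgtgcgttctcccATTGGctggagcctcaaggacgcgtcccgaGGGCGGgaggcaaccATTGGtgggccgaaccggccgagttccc
H3f3a: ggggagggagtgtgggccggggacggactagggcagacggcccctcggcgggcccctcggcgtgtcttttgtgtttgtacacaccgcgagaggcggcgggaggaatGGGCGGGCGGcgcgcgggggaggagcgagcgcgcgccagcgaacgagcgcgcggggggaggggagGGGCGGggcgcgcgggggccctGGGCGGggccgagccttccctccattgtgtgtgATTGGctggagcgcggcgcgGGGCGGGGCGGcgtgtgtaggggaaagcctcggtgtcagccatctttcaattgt
H3f3b: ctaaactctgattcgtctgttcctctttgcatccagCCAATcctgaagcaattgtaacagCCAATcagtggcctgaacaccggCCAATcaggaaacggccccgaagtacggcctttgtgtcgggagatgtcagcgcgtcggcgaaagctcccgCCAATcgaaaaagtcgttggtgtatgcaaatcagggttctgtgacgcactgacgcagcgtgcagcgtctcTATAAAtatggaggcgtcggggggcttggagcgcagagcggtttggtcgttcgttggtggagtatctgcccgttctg

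The H1foo window was the one poor in CpG. It held 5 CpG dinucleotides and 54.7% G+C, against 24 to 40 CpG in the other 7 members with a window and a median of 7 CpG (quartiles 3 and 20) and 52.7% G+C over all 32851 promoters of the table. CCAAT matched 2 times in H1foo, 3 times in H2afz, 4 times in H2afv, 1 time in H3f3a and 4 times in H3f3b, and not in the windows of H1f0, H1fx and H2afy. It is in 37.4% of all promoters. GGGCGG matched in H1f0 (1), H1fx (1), H2afz (2), H2afv (1), H2afy (2) and H3f3a (6, some of them overlapping), and is in 35.7% of all promoters. TATAAA, in 13.6% of all promoters, matched 1 time, in H3f3b. CACGTG, in 7.15%, matched 1 time, in H2afz. TAATTG, in 8.0%, was not in any of the 8 windows. These are descriptions of letters in a window and not of binding.

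H1foo, the linker histone that marks the oocyte, was read in all 8 embryo libraries and listed at 0 in all 4 ES libraries. It had 24.7, 10.7 and 8.30 FPKM in KO arrest libraries, 51.7, 12.8 and 26.6 FPKM in KO embryo libraries, and 20.3 and 103.1 FPKM in control embryo libraries. All 3 embryo groups overlapped, and the control pair alone spanned most of the range. Group means were 14.6 ± 8.84, 30.4 ± 19.7 and 61.7 ± 58.5 FPKM (SD, n = 3, 3 and 2) in KO arrest, KO embryo and control embryo, and none of the neighbours in that order differed beyond its spread. In these embryo libraries, fewer cells of a type and less RNA per cell cannot be told apart.

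Npm2, the nucleoplasmin whose frog counterpart stores H2A-H2B in the egg and takes basic proteins off sperm chromatin, followed the same order of groups. Its levels were 4.05, 5.63 and 6.79 FPKM in KO arrest libraries, 19.3, 6.26 and 28.0 FPKM in KO embryo libraries, and 11.8 and 48.2 FPKM in control embryo libraries, and it was listed at 0 in all ES libraries. KO arrest libraries lay below both control embryo libraries without overlap. KO arrest and KO embryo overlapped, and so did KO embryo and control embryo.

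H1f0, the linker histone of cells that divide little or differentiate, was present in every library at moderate level. It had 10.4, 20.8 and 28.4 FPKM in KO arrest libraries, 26.4, 25.7 and 16.6 FPKM in KO embryo libraries, and 49.9 and 53.4 FPKM in control embryo libraries. Both KO groups lay below both control embryo libraries, and the pair of control values was close. In ES cells the levels were 38.2 and 40.6 FPKM in KD ESC libraries and 45.6 and 43.8 FPKM in control ESC libraries, which did not overlap either.

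H1fx, a linker histone with a divergent sequence, had the opposite pattern to H1foo. It had 2.13, 1.83 and 0.796 FPKM in KO arrest libraries, 1.54, 0 and 0.620 FPKM in KO embryo libraries, and 0.0693 and 0.754 FPKM in control embryo libraries. The ES levels were far higher, at 41.7 and 53.5 FPKM in KD ESC libraries and 87.1 and 67.3 FPKM in control ESC libraries. A share within the summed FPKM of H1foo, H1f0 and H1fx does not depend on 1 scale factor per library. A trend of a library with transcript length can still shift this and the later shares. H1foo made up 40.2 ± 23.2% of the sum in KO arrest, 53.0 ± 17.2% in KO embryo and 47.2 ± 25.9% in control embryo (SD, n = 3, 3 and 2). H1fx made up 54.5 ± 3.26% in KD ESC and 63.1 ± 3.56% in control ESC libraries (SD, n = 2 each). H1foo and H1f0 thus shared the linker set in embryos, in proportions that ran from 22.1% to 66.3% H1foo within KO arrest alone.

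H2afz encodes H2A.Z, the H2A variant that sits beside promoters, and was among the most abundant transcripts of the embryos. It had 2125, 1925 and 1512 FPKM in KO arrest libraries, 745, 751 and 1203 FPKM in KO embryo libraries, and 301 and 607 FPKM in control embryo libraries. In FPKM the 3 embryo groups did not overlap and stood in that order, with ranks from the top of 22619 symbols between 18 and 118. In TPM the 2 KO groups overlapped, with 3040 in KO embryo 3 and 2697 in KO arrest 3. In ES cells the order was the opposite, with 77.0 and 93.5 FPKM in KD ESC libraries against 221 and 216 FPKM in control ESC libraries.

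H2afv encodes a close copy of H2A.Z. It had 90.6, 142 and 141 FPKM in KO arrest libraries, 129, 101 and 122 FPKM in KO embryo libraries, and 59.3 and 68.6 FPKM in control embryo libraries. Both KO groups lay above the controls and overlapped each other. In ES cells it ran against H2afz, at 37.5 and 33.5 FPKM in KD ESC libraries and 23.3 and 25.9 FPKM in control ESC libraries. The share of H2afz in the sum of both genes was 93.5 ± 2.24% in KO arrest, 88.0 ± 2.77% in KO embryo and 86.7 ± 4.46% in control embryo (SD, n = 3, 3 and 2), and 70.4 ± 4.51% in KD ESC and 89.9 ± 0.850% in control ESC (SD, n = 2 each). KD ESC was the group furthest from the rest, at 67.3% and 73.6% in its 2 libraries against 83.5% or more in every other library.

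H2afx encodes H2A.X, the variant phosphorylated around DNA breaks, whose RNA is made both with and without a poly(A) tail. It had 23.1, 72.2 and 60.7 FPKM in KO arrest libraries, 6.55, 2.55 and 3.32 FPKM in KO embryo libraries, and 0.412 and 7.75 FPKM in control embryo libraries. KO arrest stood above both other embryo groups, which overlapped. The ES levels were 479 and 530 FPKM in KD ESC libraries and 795 and 802 FPKM in control ESC libraries, among the 71 highest symbols of each library. Of the summed FPKM of H2afx, H2afz, H2afv and H2afy, H2afx held 2.64 ± 1.40% in KO arrest, 0.428 ± 0.273% in KO embryo and 0.618 ± 0.725% in control embryo (SD, n = 3, 3 and 2), and 78.7 ± 0.0715% in KD ESC and 75.1 ± 0.263% in control ESC (SD, n = 2 each). The leading H2A variant transcript was therefore H2afz in every embryo library and H2afx in every ES library.

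H2afy encodes macroH2A1, a variant with a large domain outside the nucleosome core that is found on silent chromatin. It had 7.58, 6.06 and 6.08 FPKM in KO arrest libraries, 2.49, 15.8 and 5.94 FPKM in KO embryo libraries, and 29.8 and 1.75 FPKM in control embryo libraries. The 2 control embryo libraries were the highest and the lowest of all 8 embryo libraries. In ES cells it had 15.2 and 15.5 FPKM in KD ESC libraries and 21.5 and 21.1 FPKM in control ESC libraries.

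H3f3a and H3f3b encode the same H3.3 protein from different transcripts. H3f3a had 684, 806 and 1168 FPKM in KO arrest libraries, 255, 190 and 175 FPKM in KO embryo libraries, and 141 and 107 FPKM in control embryo libraries. As with H2afz in FPKM, the 3 embryo groups did not overlap. The ES libraries lay within a narrow span, at 184 and 192 FPKM in KD ESC and 179 and 180 FPKM in control ESC.

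H3f3b was the most abundant member in every embryo library. It had 2683, 3105 and 3917 FPKM in KO arrest libraries, 1372, 1444 and 2893 FPKM in KO embryo libraries, and 687 and 2578 FPKM in control embryo libraries. Its rank from the top was 11 to 13 in KO arrest, 12 to 23 in KO embryo, and 45 and 13 in control embryo libraries. The ES levels were 471 and 446 FPKM in KD ESC libraries and 254 and 253 FPKM in control ESC libraries, without overlap.

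H3f3a held a steady share of H3.3 transcript within each group of ES cells and in KO arrest. The share of H3f3a in the summed FPKM of both genes was 20.3%, 20.6% and 23.0% in KO arrest libraries, 15.7%, 11.6% and 5.72% in KO embryo libraries, and 17.0% and 3.99% in control embryo libraries. It was 28.1% and 30.1% in KD ESC libraries against 41.4% and 41.5% in control ESC libraries. KO arrest lay above every other embryo library, and KD ESC below control ESC. FPKM divides by gene length, so these shares compare levels per length, and reads in sequence shared with near-identical copies and pseudogenes of H3f3a, H3f3b and H2afz could be split between loci.

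**Figure D1:**
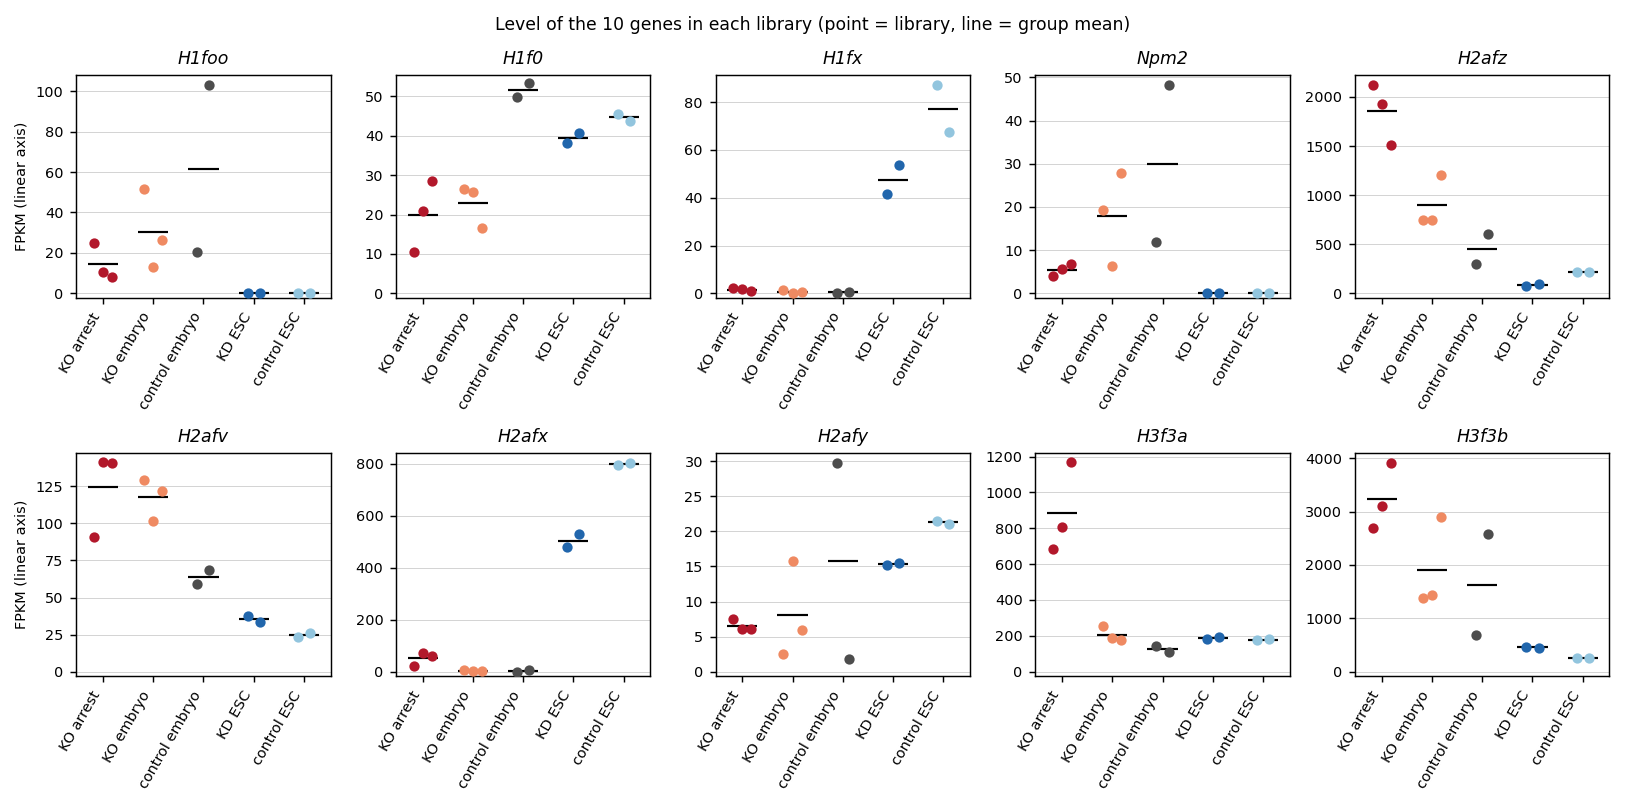
FPKM (linear vertical axis, a scale of its own for each gene) of the 10 genes in each of the 12 libraries, by group; points are libraries and lines are group means. H1foo and Npm2 were at 0 in all ES libraries, H2afx was at 479 FPKM or more in ES libraries and at 72.2 FPKM or less in embryo libraries, and H2afz and H3f3a stood highest in KO arrest.

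**Figure D2:**
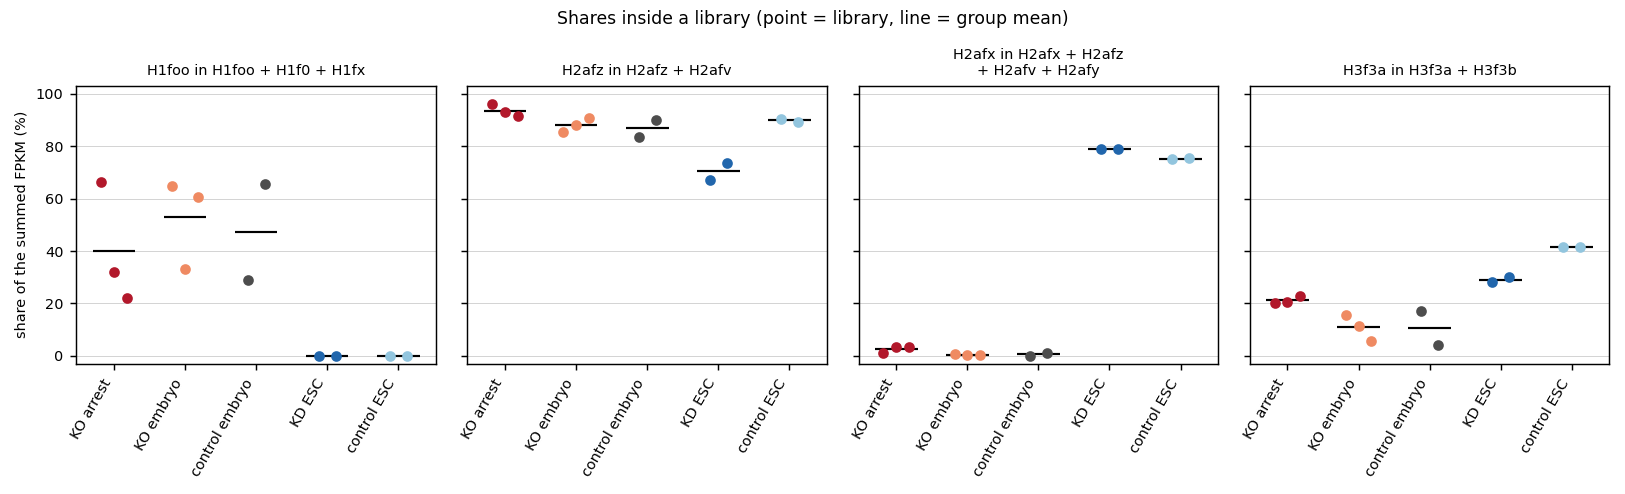
Share (%, vertical axis) of 1 gene in the summed FPKM of its family in each library, by group; points are libraries and lines are group means. H2afx held 74.9% to 78.8% of the H2A variant sum in ES libraries and at most 3.53% in embryo libraries, and the H3f3a share was 28.1% and 30.1% in KD ESC against 41.4% and 41.5% in control ESC libraries.

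In KO arrest against control embryo, 3 of the 10 members were called higher and 0 lower at an adjusted p under 0.05 (limma on log2(FPKM + 1), Benjamini-Hochberg over 11795 genes). Of all genes tested, 16.4% were called higher and 8.87% lower, so 3 of 10 is a count to be read against a broad difference between these groups. The members' median log2 fold change was 0.90 and that of all genes was 0.45. H3f3a was higher by a log2 fold change of 2.80 ± 0.37 (SE; adjusted p = 0.000678 in limma), with group means of 886 ± 251 against 124 ± 23.8 FPKM (SD, n = 3 and 2). H2afz was higher by 2.10 ± 0.39 (adjusted p = 0.00396), at 1854 ± 313 against 454 ± 216 FPKM. H2afx was higher by 3.76 ± 0.82 (adjusted p = 0.00849), at 52.0 ± 25.7 against 4.08 ± 5.19 FPKM. All 3 calls held with either control alone. With control embryo 2 as the lone control, H3f3a stood at 3.00, H2afz at 1.60 and H2afx at 2.45, and with control embryo 1 as the lone control these genes stood at 2.61, 2.60 and 5.08, on the assumption that a single control library varies as much as the libraries of the other embryo groups do.

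The oocyte genes Npm2 and H1foo, and H1f0, which ES cells also expressed, had negative fold changes that did not pass in this fit. Npm2 had a log2 fold change of -1.98 ± 0.74 (adjusted p = 0.0746), H1foo -1.74 ± 0.78 (adjusted p = 0.129) and H1f0 -1.44 ± 0.51 (adjusted p = 0.0619). Npm2 and H1f0 were called lower when TPM, median-of-ratios scaling or quantile normalization took the place of FPKM. Without control embryo 1, H1foo stood at -2.88 and Npm2 at -2.95. Against control embryo 1 alone both drops were smaller. That library had 20.3 FPKM of H1foo, within the KO arrest range of 8.30 to 24.7, and 11.8 of Npm2, above the range of 4.05 to 6.79. Control embryo 2 had 103.1 and 48.2 FPKM. H2afz, whose longest transcript has 1069 bases, lost its call when each library's trend with transcript length was removed (0.79, adjusted p = 0.128), while H3f3a, with 2841 bases, kept its call (2.39, adjusted p = 0.00341). In that setting H1foo (-2.998, adjusted p = 0.00788), H1f0 (-2.12, adjusted p = 0.0183) and Npm2 (-3.31, adjusted p = 0.00339) were called lower. Positive but not called were H3f3b (1.26 ± 0.54, adjusted p = 0.110), H2afv (0.92 ± 0.37, adjusted p = 0.0948) and H1fx (0.88 ± 0.58, adjusted p = 0.297), and H2afy stood at -0.29 ± 0.98 (adjusted p = 0.848). Without control embryo 1 the H3f3b value was 0.31, and without control embryo 2 it was 2.22. The median of all genes was 0.16 and 0.88 in those settings. In FPKM the libraries of the 2 groups did not overlap for 8 members (6 higher, 2 lower in KO arrest), against 48.8% of all genes tested. This count depended on the scale. In TPM, H3f3b (5531 in KO arrest 1, 6504 in control embryo 2) and H1fx (1.42 in KO arrest 3, 1.90 in control embryo 2) overlapped. H1foo, which overlapped in FPKM, did not in TPM (at most 50.8 in KO arrest, at least 59.6 in control embryo).

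Both KO groups were set against the same 2 control embryo libraries, so their values below are not independent of those above. In KO embryo against control embryo, none of the 10 members was called (limma), against 6.36% of all genes tested, 4.86% higher and 1.5% lower, and 3 members had an unadjusted p under 0.05. These were H2afz with a log2 fold change of 1.03 ± 0.39 (adjusted p = 0.145), H2afv with 0.87 ± 0.37 (adjusted p = 0.199) and H1f0 with -1.17 ± 0.51 (adjusted p = 0.206). The 2 groups did not overlap for 4 members, H2afz, H2afv and H3f3a higher and H1f0 lower in KO embryo, against 36.3% of all genes. Without control embryo 2 the H2afz value was 1.54, where the median of all genes was 0.74, against 0.31 with both controls.

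For 6 members, H1foo, H3f3b, H2afy, Npm2, H2afx and H1fx, the sign differed between the 2 control libraries when each was the lone control. The log2 fold change of H1foo was -0.79 ± 0.78 with both controls, -1.94 without control embryo 1 and 0.35 without control embryo 2. That of H3f3b was 0.43 ± 0.54, -0.53 and 1.38, and that of H2afy was -0.31 ± 0.98, 1.43 and -2.05, in the same order of settings. None of these values was called. H3f3a stood at 0.73 ± 0.37 (adjusted p = 0.273), and at 0.92 and 0.53 in those settings. Npm2 stood at -0.63 ± 0.74, H2afx at 0.47 ± 0.82 and H1fx at 0.23 ± 0.58, with adjusted p between 0.666 and 0.859.

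Between the 2 groups labelled knock out, H3f3a and H2afx were called higher in KO arrest than in KO embryo, 2 of 10 members, against 4.93% of all genes called higher and 3.65% called lower. The share of calls that were higher was 57.4%, and 29.3% with TPM. H3f3a was higher by a log2 fold change of 2.08 ± 0.33 (limma, adjusted p = 0.00610), at 886 ± 251 against 207 ± 42.6 FPKM (SD, n = 3 each). It kept its call when any 1 embryo library was left out, with values from 1.86 to 2.24. H2afx was higher by 3.29 ± 0.73 (adjusted p = 0.0232), at 52.0 ± 25.7 against 4.14 ± 2.12 FPKM. Its call was lost without any 1 of the 3 KO embryo libraries or without KO arrest 2 or 3 (adjusted p between 0.0521 and 0.0966), and with a pseudocount of 0.1, no filter or TPM. Without those single libraries 2.45% to 3.41% of all genes were called, against 8.58% as reported. H2afz stood at 1.07 ± 0.35 (adjusted p = 0.0872), and its libraries, like those of H3f3a and H2afx, did not overlap in FPKM, against 37.1% of all genes. The H2afz value was 0.62 with TPM, 0.45 with quantile normalization, 0.25 with the length trend removed and 1.16 with median-of-ratios scaling. Npm2 (-1.34 ± 0.66, adjusted p = 0.226), H1foo (-0.95 ± 0.70, adjusted p = 0.431) and H3f3b (0.84 ± 0.48, adjusted p = 0.296) overlapped in FPKM. In TPM the H2afz libraries overlapped, while those of Npm2 and H2afv did not, both lower in KO arrest.

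In KD ESC against control ESC, 1 member was called higher and 2 lower of the 8 that could be tested, against 2.59% of all genes called higher and 3.64% called lower. H3f3b was higher by a log2 fold change of 0.85 ± 0.06 (limma, adjusted p = 0.0225), at 459 ± 17.6 against 253 ± 0.645 FPKM (SD, n = 2 each). H2afz was lower, at -1.36 ± 0.11 (adjusted p = 0.0264), and H2afx was lower, at -0.66 ± 0.07 (adjusted p = 0.0314). The fit had 2 residual degrees of freedom. All 3 calls were lost when either control ESC library was left out, as were most calls over all genes, with 1 control library left. The values without control ESC 1 and without control ESC 2 were -1.34 and -1.37 for H2afz. They were -0.67 and -0.66 for H2afx, and 0.85 and 0.85 for H3f3b. Of the 5 others, H2afv stood at 0.51 ± 0.11 (adjusted p = 0.0712), H2afy at -0.45 ± 0.10 (adjusted p = 0.0692), H1fx at -0.69 ± 0.19 (adjusted p = 0.0985), H1f0 at -0.18 ± 0.09 (adjusted p = 0.254) and H3f3a at 0.07 ± 0.07 (adjusted p = 0.532). The groups did not overlap for all 8, but this was so for 62.5% of all genes tested. Of the 8 ES cell markers, 5 were lower in both KD ESC libraries than in both control ESC libraries (Pou5f1, Zfp42, Esrrb, Klf4 and Dppa5a), 1 was higher in both (Sox2), and 2 overlapped (Nanog and Tdgf1). Esrrb differed widely between the KD ESC libraries, at 28.6 and 244 FPKM, against 253 and 255 FPKM in control ESC. The part of these markers in the result was not tested.

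The H2afz effect was positive in embryos and negative in ES cells. The difference of the 2 effects, KO embryo over control embryo less KD ESC over control ESC, was 2.39 ± 0.48 on the log2 scale (limma over all 12 libraries, adjusted p = 0.0319). H2afz was the 1 member of 10 called in that test, in which 2.69% of all genes were called. The call was lost in 9 of 22 alternatives, among them median-of-ratios scaling (1.89, adjusted p = 0.0769) and leaving out any 1 of the 4 ES libraries, KO embryo 1, KO embryo 3 or KO arrest 2. Fewer of all genes were called in each of these settings too, 1.94% with median-of-ratios scaling against 2.69%.

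**Figure D3:**
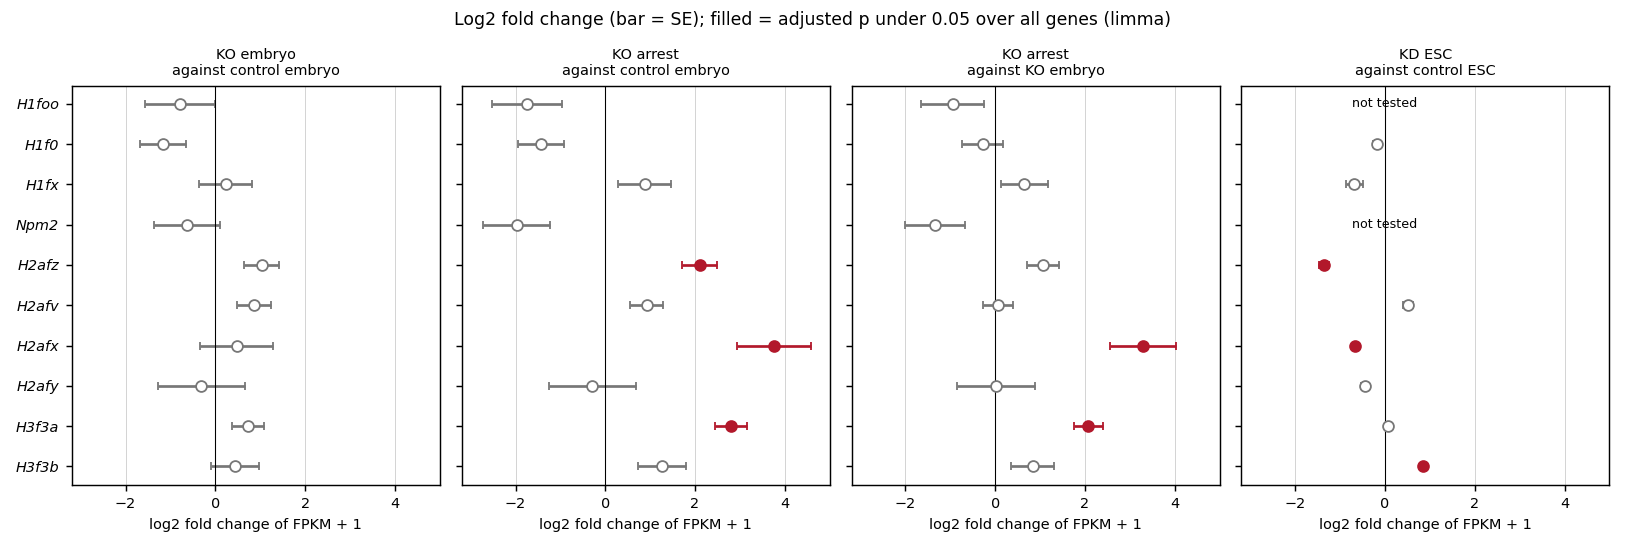
Log2 fold change of FPKM + 1 (horizontal axis; bars are SEs) of the 10 genes (vertical axis) in 4 comparisons; filled points passed an adjusted p under 0.05 in limma. H3f3a and H2afx are filled in both comparisons of KO arrest, no point is filled for KO embryo against control embryo, and H2afz lies right of 0 in the embryo panels and at -1.36 in the ES panel.

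Set against control ESC, control embryo libraries had 5 members called higher and 2 lower, where 12.6% of all genes were called higher and 40.8% lower. Strain and cell type differ together here and cannot be told apart. H1foo and Npm2 were called higher (limma, adjusted p = 0.000332 and 0.000483), and no fold is given against a group listed at 0. H3f3b was higher by a log2 fold change of 2.39 ± 0.54 (adjusted p = 0.00412), H2afv by 1.34 ± 0.30 (adjusted p = 0.00363) and H2afz by 0.96 ± 0.35 (adjusted p = 0.0413). The H2afz call was lost in 12 of 23 alternatives, and the value was 0.46 without control embryo 2 (adjusted p = 0.253). H2afx was lower in control embryo, at -7.83 ± 0.79 (adjusted p = 3.53e-05), with 4.08 ± 5.19 against 798 ± 4.68 FPKM (SD, n = 2 each). H1fx was lower, at -5.82 ± 0.52 (adjusted p = 1.80e-05), with 0.412 ± 0.484 against 77.2 ± 14.0 FPKM. H1f0 (0.20 ± 0.44), H3f3a (-0.54 ± 0.29) and H2afy (-1.28 ± 0.99) were not called, and H2afy stood at -3.02 without control embryo 1. The groups did not overlap for 9 members, all but H2afy, against 74.4% of all genes.

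Partner genes were read from 6 lists of the proteins that carry or accompany these histones. The list of nucleoplasmin and H2A-H2B chaperones had 9 genes tested, among them Spty2d1, an H3-H4 chaperone. In KO arrest against control embryo this list had 4 called higher and 0 lower, where 16.4% of all genes were called higher and 8.87% lower. Its median log2 fold change was 1.12 against 0.45 over all genes. Npm1, the somatic nucleophosmin of the nucleolus, had 1376, 2782 and 2375 FPKM in KO arrest libraries and 79.7 and 191 FPKM in control embryo libraries (log2 fold change 4.07 ± 0.48, adjusted p = 0.000438). It ran opposite to its family member Npm2, which had a negative fold change that was not called. Ncl, the nucleolar protein nucleolin, was higher by 3.06 ± 0.44 (adjusted p = 0.00115), at 291 against 36.9 FPKM on average. The list for H2A.Z deposition (18 tested, median 1.08) was drawn from the SRCAP and p400-Tip60 complexes, plus Ino80 of another complex. Against the same shares of all genes, 5 of its genes were higher and 0 lower. Among them Znhit1, an SRCAP subunit, was higher by 4.04 ± 0.69 (adjusted p = 0.00252), with 24.04, 32.4 and 48.6 FPKM in KO arrest libraries and 0 and 3.43 FPKM in control embryo libraries, and Meaf6, a subunit of Tip60 acetyltransferase complexes, by 2.85 ± 0.59 (adjusted p = 0.00687).

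Of 9 H3.3 chaperone genes (among them Hira, Daxx, Atrx and Asf1a), 0 were called in KO arrest against control embryo, with a median of -0.17, where 16.4% of all genes were called higher and 8.87% lower (limma). Of these 9, 1 had an unadjusted p under 0.05. Whether this list differs from the others was not tested. The CAF-1 and other H3-H4 chaperones (8 tested) had 2 higher, Nasp (2.34 ± 0.68, adjusted p = 0.0294), which binds free H3-H4, and Rbbp4 (1.75 ± 0.56, adjusted p = 0.0424), a CAF-1 subunit, and 0 lower. Of 5 somatic linker histones 1 was higher, Hist1h1c (2.34 ± 0.73, adjusted p = 0.0395), at 2.99, 4.998 and 10.7 FPKM in KO arrest libraries and 0.0955 and 0.514 FPKM in control embryo libraries. Transcripts of the replication-dependent clusters mostly lack a poly(A) tail, so their FPKM in these libraries counts only the tailed part. Of the other variants (4 tested) 2 were higher, H2afj (2.56 ± 0.48, adjusted p = 0.00406), an H2A variant, and Cenpa (1.41 ± 0.46, adjusted p = 0.0447), the centromeric H3.

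In KO embryo against control embryo the same 6 lists had 4 genes called higher and 0 lower among 53 tested, where 4.86% of all genes were called higher and 1.5% lower. They were Rbbp4 (3.11 ± 0.56, adjusted p = 0.0147), with 20.0, 21.8 and 26.5 FPKM in KO embryo libraries and 1.30 and 2.24 FPKM in control embryo libraries, Ncl (1.93 ± 0.44, adjusted p = 0.0338), Spty2d1 (2.65 ± 0.65, adjusted p = 0.0400), an H3-H4 chaperone linked to transcription, and Meaf6 (2.63 ± 0.59, adjusted p = 0.0309). In KO arrest against KO embryo 5 were higher and 1 lower of 53, where 4.93% of all genes were called higher and 3.65% lower. Npm1 (2.32 ± 0.43, adjusted p = 0.0113) and Set (2.09 ± 0.52, adjusted p = 0.0346), both histone chaperones, Vps72 (3.27 ± 0.81, adjusted p = 0.0323), the H2A.Z-binding subunit of SRCAP, Dmap1 (2.30 ± 0.62, adjusted p = 0.0456) and the linker histone Hist1h1b (2.87 ± 0.78, adjusted p = 0.0456) were higher. Epc2, of the Tip60 complex, was lower (-1.78 ± 0.49, adjusted p = 0.0467).

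In KD ESC against control ESC the lists had 2 higher and 4 lower among 57 tested, where 2.59% of all genes were called higher and 3.64% lower. Mcm2, a helicase subunit that also binds H3-H4, was lower (-0.85 ± 0.07, adjusted p = 0.0270), as were Npm3 (-1.09 ± 0.17, adjusted p = 0.0451), H2afj (-0.66 ± 0.10, adjusted p = 0.0442) and Hist1h1b (-0.38 ± 0.05, adjusted p = 0.0399). Rbbp7 (0.64 ± 0.11, adjusted p = 0.04997) and Ncl (0.66 ± 0.10, adjusted p = 0.0453) were higher. Of the 18 H2A.Z deposition genes, with a median of -0.21, none was called in limma and 3 had an unadjusted p under 0.05.

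**Figure D4:**
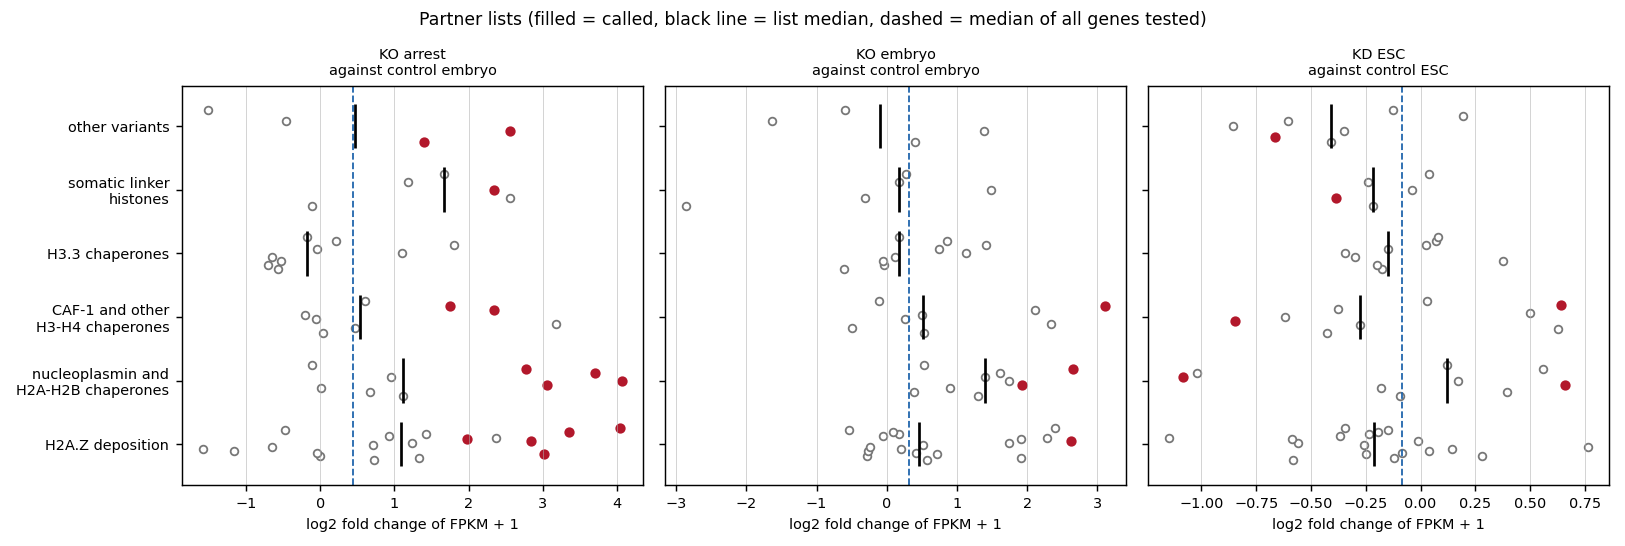
Log2 fold change of FPKM + 1 (horizontal axis, a scale of its own per panel) of the tested genes of 6 partner lists (vertical axis) in 3 comparisons; filled points were called in limma, black lines are list medians and the dashed line is the median of all genes tested. The KO arrest panel has 14 filled points, all right of 0, and the H3.3 chaperone row has none.

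Control embryo against control ESC showed the partners in both directions. All 5 somatic linker histones were called lower in control embryo, with a median log2 fold change of -7.33 against -1.01 over all genes, and Hist1h1c had 0.0955 and 0.514 FPKM in control embryo libraries against 518 and 514 FPKM in control ESC libraries. Of the H3.3 chaperones 2 were higher and 3 lower: Asf1a, which hands H3-H4 to HIRA and CAF-1, was higher (2.78 ± 0.30, adjusted p = 5.31e-05) at 105 and 126 against 14.9 and 17.0 FPKM, and so was Asf1b (2.45 ± 0.67, adjusted p = 0.0111), while Hira (-3.02 ± 0.51, adjusted p = 0.000796) and Daxx (-3.68 ± 0.74, adjusted p = 0.00218) were lower. Of the other lists, 4 of 7 other variants, 5 of 9 H3-H4 chaperones, 7 of 9 H2A-H2B chaperones and 9 of 18 H2A.Z deposition genes were lower, where 40.8% of all genes were, and Rbbp7 (0.97 ± 0.34, adjusted p = 0.0346) and Actr6 (2.10 ± 0.61, adjusted p = 0.0149) were higher. Among the lower ones were Rbbp4 (-4.20 ± 0.41, adjusted p = 2.86e-05), Ruvbl2 (-2.61 ± 0.26, adjusted p = 3.63e-05), Trrap (-3.46 ± 0.35, adjusted p = 3.52e-05) and H2afy2 (-4.11 ± 0.27, adjusted p = 5.19e-06), the second macroH2A gene.

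Genes with the pattern most like that of 3 members were found by Pearson's r of log2(FPKM + 1) over the 12 libraries among 12789 named genes. As embryos and ES cells form separate clusters, r is a description of that contrast as much as of differences within embryos. For H1foo they were Nlrp5 (r = 0.983), a maternal-effect gene of the oocyte, Gdf9 (0.981), an oocyte growth factor, and Atg5 (0.978), an autophagy gene. Gdf9 averaged 16.5, 61.6 and 97.4 FPKM in KO arrest, KO embryo and control embryo, and 0.410 and 0.458 FPKM in KD ESC and control ESC. For H2afz they were Tomm7 (0.979), a subunit of the mitochondrial import pore, Znrd1 (0.978), an RNA polymerase I subunit, and Folr1 (0.974), a folate receptor, with Tomm7 at 380, 86.2 and 31.8 FPKM in KO arrest, KO embryo and control embryo and 2.64 and 11.6 FPKM in KD ESC and control ESC. For H1f0 the best matches were weaker, Suclg2 (0.912), Ston2 (0.887) and Fndc3a (0.873).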

How the data were processed

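The authors deposited, per library and gene, FPKM, TPM and coverage values, per the file headers. The build mm9 and the tools StringTie, DESeq2 and STAR (with the version 0.6.0) are named per the submitters' processing notes. The sources used here do not give what each tool did, nor the annotation. FPKM was used as deposited by the authors, summed per symbol. TPM as deposited was an alternative, and the coverage signal as deposited gave relative depth. Rows without a symbol (227 to 339 per library, 0.549% to 1.19% of FPKM) were left out.

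Genes at 1 FPKM or more in at least 2 libraries of a fit were tested on log2(FPKM + 1) with limma 3.58.1 with trend (R 4.3.3), so fold changes of low genes are understated; calls had a Benjamini-Hochberg adjusted p under 0.05 over all genes tested, two-sided. Embryo groups shared 1 fit of 8 libraries, ES groups 1 fit of 4, and control embryo against control ESC and the difference of effects 1 fit of 12. FPKM holds no counts, so no counting interval is given. Members and lists were chosen with earlier results of these data known. All members are named, and of each list the 2 called genes of smallest adjusted p per direction and comparison, plus the 3 genes most like H1foo, H1f0 and H2afz. Promoter windows came from RefSeq tables (GRCm38.p6) for 8 of 10 members. Alternatives are in the closing section.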

Additional observations from a re-analysis of the deposited data

Results flagged for a closer look

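H2afz was flagged because its KO embryo and KD ESC effects differed by a test of the difference itself. The KO embryo effect less the KD ESC effect was 2.39 on the log2 scale (limma interaction term over 12 libraries, adjusted p = 0.0319), with every KO embryo library above every control embryo library and both KD ESC libraries below both control ESC libraries. The call was lost under several alternatives, with adjusted p of up to 0.157, without control ESC 1. The embryo and ES samples also differ in strain, in material and in the Dcaf11 label (knock out or knock down), which cannot be told apart from one another here.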

How the results depend on the processing

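For 58 results on single members, 1166 alternatives were run: 1098 stayed on the same side of the threshold, 44 lost a call and 24 gained one. No called value changed sign, and 42 values that were not called did. In KO arrest against control embryo, 3 members were called as reported, and 5 under each of TPM, median-of-ratios scaling, quantile normalization, removal of the length trend and 1 fit of all 12 libraries; leaving out single libraries gave 3 to 5. In KO arrest against KO embryo, 2 were called as reported, 1 under each of a pseudocount of 0.1, no filter and TPM, and 4 with weights per library; leaving out single libraries gave 1 to 3. In KD ESC against control ESC, 3 were called as reported and 0 in 1 fit of all 12 libraries or with the replicate block; leaving out single libraries gave 0 to 3. In KO embryo against control embryo the count was 0, and 0 to 1 without single libraries. For the difference of effects it was 1 as reported, 0 under median-of-ratios scaling or the replicate block, and 0 to 1 without single libraries. In control embryo against control ESC it was 7, 5 with only the groups compared, 6 with no filter, quantile normalization, weights per library or the replicate block, and 6 to 8 without single libraries. Of the 5 members called in KO arrest against control embryo, 3 were higher and 2 lower under each of TPM, median-of-ratios scaling and quantile normalization. It was 2 higher and 3 lower with the length trend removed, and 4 and 1 in 1 fit of all 12 libraries. The share of all genes called moved too. In KO arrest against control embryo it was 25.2% as reported, and 22.6%, 24.7%, 25.3%, 23.5% and 28.2% in those 5 settings. In KO arrest against KO embryo it was 8.58% as reported, 2.34% with no filter and 21.7% with weights per library. A pseudocount of 0.1 gave 6.10% and TPM gave 8.19%. In KD ESC against control ESC it was 6.23%, 0.644% in 1 fit of all 12 libraries and 0.212% with the replicate block. For the difference of effects it was 2.69%, 1.94% with median-of-ratios scaling and 0.879% with the replicate block. The cause of these shifts was not tested.

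Replicate numbers are shared by the labels, but none of 21 same-number pairs of libraries had deviations that correlated above 0.1 (-0.101 to 0.0247) and 0 of 12 libraries correlated best with its own number, so the numbers were not taken to pair samples. With the replicate block, genes called fell to 76, against 750, in KO embryo against control embryo and to 26, against 764, in KD ESC against control ESC.

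Over all genes, the count called ranged from 76 to 1817 (750 as reported) in KO embryo against control embryo, 1505 to 4068 (2976) in KO arrest against control embryo, 285 to 2555 (1012) in KO arrest against KO embryo and 13 to 967 (764) in KD ESC against control ESC. The share of calls that were higher depended on scaling. It was 76.4% as reported, 46.4% with median-of-ratios and 56.9% with quantile normalization in KO embryo against control embryo, 64.9%, 53.4% and 48.9% in KO arrest against control embryo, 41.6%, 53.3% and 50.6% in KD ESC against control ESC, and 57.4%, 61.2% and 47.1% in KO arrest against KO embryo, where TPM gave 29.3%. In control embryo against control ESC it was 23.6%, 25.8% and 45.7%. The median of all genes moved from 0.31 to 0.05 and 0.04 in KO embryo against control embryo and from 0.45 to 0.24 and 0.07 in KO arrest against control embryo. The 2 control embryo libraries limit every embryo comparison, and the deposited values hold no read counts.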
